A study of Mus musculus with 4 samples.

Results

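The GIMAP genes encode GTPases of immunity-associated proteins, small membrane-associated GTP-binding proteins made mainly by lymphocytes. The family was described here through all 11 probe sets that the platform annotation assigns to Gimap1, Gimap3, Gimap4, Gimap5, Gimap6, Gimap7, Gimap8 or Gimap9, out of 45101 probe sets on the array, and through the 8 genes they stand for, out of 18193 with a probe set of their own. The annotation gave each of the 11 a single gene symbol. Gimap4, Gimap6 and Gimap7 had 2 probe sets each and the other 5 genes had 1. The arrays measured regulatory T cells (Treg cells), the Foxp3-expressing CD4 T cells that hold other immune cells in check, from mouse spleen. All samples were of strain C57BL/6, and no age or treatment is stated. There were 2 arrays labelled wild-type and 2 labelled Foxo1/3-deficient, and the titles number them so that pair 1 and pair 2 each hold 1 array of either label. For the deficient samples the genotype label mentions only Foxo1, whereas the titles mention both genes and were followed. The sources used here do not give how the genes were deleted, in which cells, how the cells were sorted or whether animals were pooled.

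GIMAP proteins sit on membranes of the lysosome, the endoplasmic reticulum and other organelles, and their genes lie side by side in a single cluster. They are best known for keeping lymphocytes alive. Loss of Gimap5 causes lymphopenia in rats and mice, and loss of Gimap1 strips the body of most mature T and B cells. The link to this study is that CD4 T cells of Gimap5-deficient mice are known to lose Foxo proteins. Whether the reverse holds at the transcript level, with GIMAP transcripts depending on Foxo1 and Foxo3, is the question that the comparison of labels addresses for this family.

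All 4 arrays had the same trimmed mean signal of 500.003, and their medians ran from 72.0 to 83.4. The 3′ over 5′ ratio of the Gapdh control signals was 4.34 and 2.66 on the wild-type arrays of pair 1 and pair 2. It was 3.30 and 3.63 on the arrays labelled deficient. For actin the ratio was 1.47 and 1.71, against 1.30 and 1.90. The part of RNA quality in the GIMAP values was not tested. Foxo1 itself read between 612 and 2383 on its 3 measured probe sets on the wild-type arrays and between 3133 and 6949 on the arrays labelled deficient, so the Foxo1 signal was higher on the arrays labelled deficient. All 3 were called when every probe set was tested (log2 2.19, 2.21 and 1.97, limma adjusted p = 0.0128, 0.0084 and 0.0280). Where these probe sets lie relative to the deleted part is not known here, and a probe set outside it does not check the label. The 2 measured Foxo3 probe sets read 861 to 2635 on the wild-type arrays and 521 to 1424 on the arrays labelled deficient. Both were lower on the latter and missed the threshold (log2 -0.70 and -0.77, limma adjusted p = 0.342 and 0.288). Directions are therefore those of the arrays as labelled, and the deficient arrays are called labelled-deficient. In the T cell list (Cd3d, Cd3e, Cd3g, Cd4, Cd28 and Lat) the summed signal was 35333 to 36687 on the wild-type arrays and 37319 to 37511 on the labelled-deficient ones. The sums hold members that went opposite ways, and none of the 6 was called (limma, where 2.57% of all genes were in either direction). Cd28 read 4322 and 4449 against 7360 and 10829 (log2 1.02, limma adjusted p = 0.0638). Lat was lower, at 7939 and 7474 against 6856 and 5816. Neither overlapped between the labels, while Cd3d, Cd3e, Cd3g and Cd4 did. Of all genes 41.1% had no overlap between the labels. Foxp3 read 6540 and 6285 on the wild-type arrays, against 6504 and 6056 on the labelled-deficient ones. Of the 6 Treg markers 1 was called higher and 0 lower (limma, where 1.21% and 1.35% of all genes were). The one called was Izumo1r, the folate receptor-like protein of Treg cells, at 2429 and 2713 against 6125 and 5011 (log2 1.10, limma adjusted p = 0.0369). Il2ra, at 2449 and 3584 against 4416 and 3962, and Ctla4, at 6516 and 6960 against 7377 and 8287, did not overlap between the labels and missed the threshold. Ikzf2 and Tnfrsf18 overlapped, and Tnfrsf18 had ratios of 0.910 in pair 1 and 0.666 in pair 2. The part of these differences in the GIMAP values was not tested. It is not stated whether replicate arrays stand for different animals, and p-values cover only the spread between these arrays, which may be technical. Where 2 signals are given for a label, the array of pair 1 comes first.

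No GIMAP gene passed the threshold between the labels. Of the 8 genes 0 were called higher and 0 lower (limma, Benjamini-Hochberg adjusted p under 0.05), where 1.21% and 1.35% of the 12109 genes tested were called. Adjusted p-values of the 8 ran from 0.525 to 0.988, and 0 had an unadjusted p under 0.05 (13% of all genes did). The log2 differences, labelled-deficient minus wild-type, ran from -0.23 to 0.35 with a median of 0.0039, against a median of -0.0034 over all genes. Their median size was 0.18, against 0.24 over all genes. The 95% intervals bound what these arrays could have missed. The lowest limit of the 8 was 0.571-fold and the highest 1.82-fold, so each interval lay within a 2-fold change in either direction. That held for 4 of the 8 without labelled-deficient replicate 1, for 6 without wild-type replicate 2, for 7 without labelled-deficient replicate 2 and for 7 on the mean of each gene's probe sets. Differences smaller than that cannot be settled with 2 arrays a group.

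**Figure D1:**
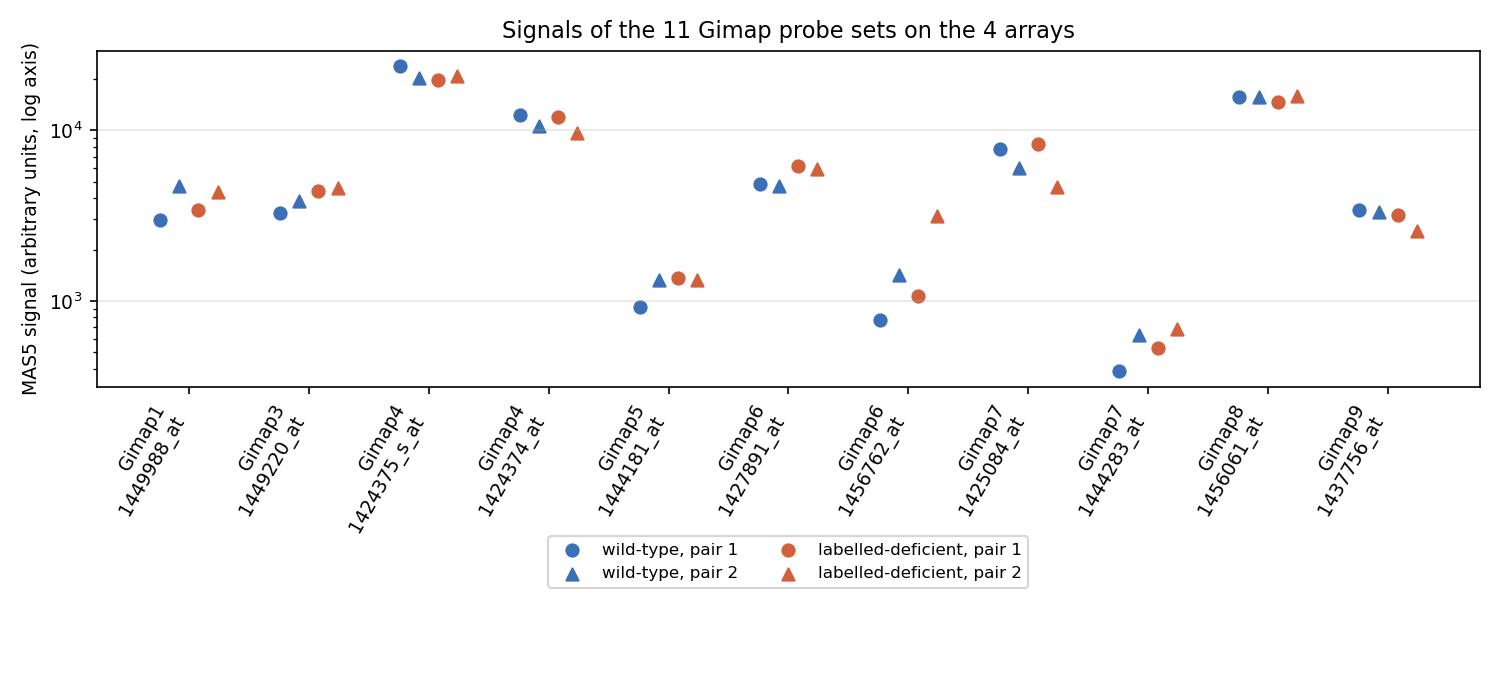
MAS5 signals (log axis, arbitrary units) of the 11 Gimap probe sets on the 4 arrays, with circles for pair 1 and triangles for pair 2. The colours interleave for 8 of the 11 probe sets, and the widest spread is that of Gimap6 probe set 1456762_at, from 774 to 3140.

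The same was true probe set by probe set: 0 of the 11 were called by limma when every kept probe set was tested (1.16% of all 27004 were) and 0 with the pair as a block (5.17%). Their intervals lay within a 2-fold change for 9 of the 11, all but the dimmer probe sets of Gimap6 and Gimap7.

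The 11 probe sets were all bright. Their mean values lay between percentiles 77.3 and 99.8 of all probe sets, and the signals ran from 387 to 23774. Both labelled-deficient arrays lay above both wild-type arrays for 2 of the 8 genes, Gimap3 and Gimap6 (20% of all genes did so), and below for 1, Gimap9 (21.1%). That is 3 of 8 genes without overlap between the labels, where 41.1% of all genes had none. Of the 11 probe sets 3 had none, against 38.3% of all probe sets.

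Gimap5 (probe set 1444181_at), the member whose loss causes lymphopenia, read 925 and 1328 on the wild-type arrays, against 1370 and 1322 on the labelled-deficient ones. The wild-type array of pair 1 was the low one, and the other 3 arrays lay close together. The log2 difference was 0.28 ± 0.25 (SE, n = 2 arrays a group), with a 95% interval from -0.31 to 0.86, and it was 0.019 without wild-type replicate 1 and 0.53 without wild-type replicate 2. Gimap1 (1449988_at), which lymphocytes need to mature and persist, read 2994 and 4718 on the wild-type arrays, against 3427 and 4356 on the labelled-deficient ones. Both pair 2 arrays were higher than both pair 1 arrays, and the labels overlapped (0.04 ± 0.26, interval -0.57 to 0.65).

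Gimap3 (1449220_at) is the close relative of Gimap5 in mice and acts with it in T cell survival. It read 3258 and 3832 on the wild-type arrays, against 4395 and 4594 on the labelled-deficient ones. The labels did not overlap, and the array of labelled-deficient cells was higher 1.35-fold in pair 1 and 1.20-fold in pair 2. The log2 difference of 0.35 ± 0.19 (interval -0.10 to 0.79) missed the threshold (limma adjusted p = 0.561).

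Gimap6 has been linked to autophagy through its binding of Gabarapl2. Its brighter probe set, 1427891_at, read 4867 and 4713 on the wild-type arrays, against 6149 and 5942 on the labelled-deficient ones. The arrays of each label lay close together, and the ratio was 1.26 within either pair. This was the GIMAP difference nearest to the threshold, at 0.33 ± 0.18 (interval -0.08 to 0.74, limma adjusted p = 0.525). The dimmer Gimap6 probe set, 1456762_at, went the same way but varied more: it read 774 and 1416 on the wild-type arrays, against 1069 and 3140 on the labelled-deficient ones. The labelled-deficient array of pair 2 stood above the rest, while the one of pair 1 lay between the wild-type arrays. When every probe set was tested, this one stood at 0.80 ± 0.49 (interval -0.33 to 1.93, limma adjusted p = 0.702). Leaving out 1 array moved it to 0.03 (labelled-deficient replicate 2 left out), 0.37 (wild-type replicate 1), 1.23 (wild-type replicate 2) or 1.57 (labelled-deficient replicate 1). Blocking on the pair brought its limma adjusted p to 0.0579.

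Gimap9 (1437756_at) was the member whose labelled-deficient arrays both lay lower, with 3402 and 3324 on the wild-type arrays, against 3204 and 2558 on the labelled-deficient ones. The drop was to 0.942 of the wild-type signal in pair 1 and 0.770 in pair 2. Its log2 difference was -0.23 ± 0.21 (interval -0.71 to 0.25).

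The starts of Gimap3, Gimap6 and Gimap9 are shown because these were the 3 genes whose arrays separated by label. None of the 3 was called, and the arrays of 41.1% of all genes separated likewise. Each stretch is the 250 bases before the RefSeq start on GRCm38.p6 chromosome 6, 5′ to 3′ on the gene's own strand, with any match to the searched motifs in capitals.
Gimap3 promoter, chr6:48770852-48771101, minus strand: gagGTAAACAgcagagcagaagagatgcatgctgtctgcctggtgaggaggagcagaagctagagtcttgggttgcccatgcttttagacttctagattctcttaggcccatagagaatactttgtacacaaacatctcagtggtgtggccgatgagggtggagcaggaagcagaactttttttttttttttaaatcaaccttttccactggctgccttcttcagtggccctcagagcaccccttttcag
Gimap6 promoter, chr6:48708245-48708494, minus strand: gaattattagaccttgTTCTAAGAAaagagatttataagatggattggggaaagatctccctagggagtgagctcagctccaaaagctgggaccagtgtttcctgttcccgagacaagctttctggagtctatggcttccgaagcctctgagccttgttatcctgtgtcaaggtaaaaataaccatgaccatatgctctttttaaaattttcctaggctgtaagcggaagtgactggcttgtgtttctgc
Gimap9 promoter, chr6:48675885-48676134, plus strand: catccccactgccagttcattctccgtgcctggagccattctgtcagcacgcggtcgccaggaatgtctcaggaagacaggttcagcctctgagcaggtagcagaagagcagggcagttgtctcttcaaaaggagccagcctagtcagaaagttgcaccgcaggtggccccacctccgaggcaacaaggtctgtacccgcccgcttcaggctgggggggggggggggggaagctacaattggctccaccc
The letters GTAAACA, a core that FoxO proteins bind, were searched on both strands in the same 250 bases before all 32851 RefSeq starts, and 3.17% of the stretches held them. Among the 9 starts of the 8 Gimap genes only that of Gimap3 did, at bases 247 to 241 before the start. The STAT pattern TTCNNNGAA stood in 7.02% of all stretches. It was found before Gimap6 (TTCTAAGAA, bases 234 to 226) and before the other listed start of Gimap8 (TTCCTAGAA, bases 47 to 39). The motifs did not overlap each other. A match describes letters only and does not show that a protein binds there.

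Gimap4, which speeds the death of T cells once apoptosis has begun, gave the highest signals of the family. Its probe set 1424375_s_at, of a kind that can share probes with other transcripts, read 23774 and 20201 on the wild-type arrays, against 19642 and 20753 on the labelled-deficient ones. The dimmer Gimap4 probe set, 1424374_at, read 12358 and 10526 on the wild-type arrays, against 11894 and 9569 on the labelled-deficient ones. On both probe sets the labels overlapped. The log2 difference was -0.12 ± 0.16 on the first (interval -0.49 to 0.25) and -0.10 ± 0.20 on the second, when every probe set was tested.

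Gimap8, the largest member, with several GTP-binding domains in a single chain, was the steadiest (1456061_at). It read 15749 and 15565 on the wild-type arrays, against 14720 and 15936 on the labelled-deficient ones. The log2 difference was -0.03 ± 0.16, with an interval from -0.39 to 0.33, the narrowest of the family.

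Gimap7 (1425084_at), which can activate other GIMAP GTPases by pairing with them, read 7712 and 6032 on the wild-type arrays, against 8275 and 4632 on the labelled-deficient ones. Both labels were high in pair 1 and low in pair 2, and the labelled-deficient arrays were the highest and the lowest of the 4 (log2 difference -0.14 ± 0.29, interval -0.81 to 0.53). The other Gimap7 probe set, 1444283_at, read 387 and 636 on the wild-type arrays, against 527 and 681 on the labelled-deficient ones. It ran the opposite way between the pairs, low in pair 1 and high in pair 2.

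**Figure D2:**
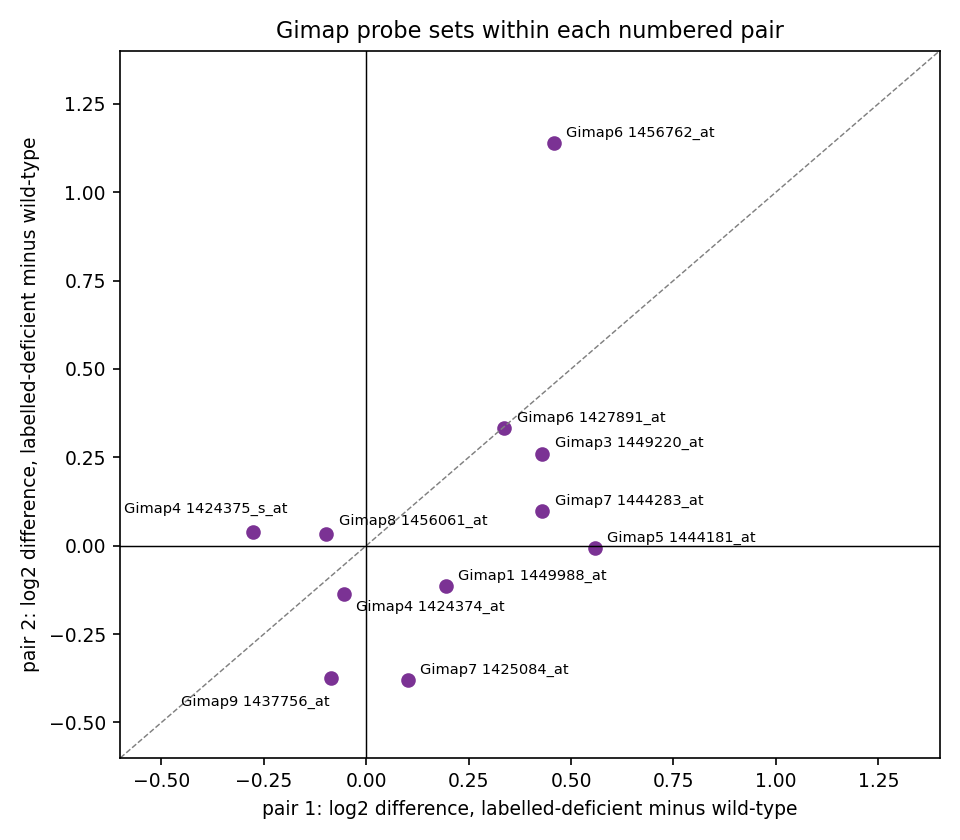
Log2 differences (labelled-deficient minus wild-type, log2(signal + 17) scale) of the 11 Gimap probe sets, pair 1 on the horizontal and pair 2 on the vertical axis, with the line of equal differences dashed. Of the 11, 4 lie above 0 in both pairs, 2 below 0 in both and 5 on opposite sides.

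Within the pairs the family did not move as a block. Of the 11 probe sets 4 were higher in labelled-deficient cells of both pairs (both of Gimap6, Gimap3 and the dimmer one of Gimap7) and 2 were lower in both (Gimap9 and the dimmer one of Gimap4). The other 5 went opposite ways. Ratios ran from 0.826 to 1.48 in pair 1 and from 0.768 to 2.22 in pair 2.

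The title numbers gave a larger difference than the labels for some members, in a fit with 1 residual degree of freedom. Between pair 2 and pair 1, with the label as a covariate, Gimap7 was lower by a log2 difference of -0.59 ± 0.17 (limma adjusted p = 0.0385), the 1 of the 8 genes called, where 6.76% of all genes were. The call was lost on the mean of the 2 Gimap7 probe sets (-0.03, adjusted p = 0.948), since they ran opposite ways, and with each array centred on its median (-0.48, adjusted p = 0.103). Gimap1 was higher in pair 2 by 0.50 ± 0.16 and missed the threshold (limma adjusted p = 0.0654), which it passed with each array centred on its median (0.62, adjusted p = 0.0156). When every probe set was tested, the dimmer Gimap6 probe set was higher in pair 2 by 1.20 ± 0.21 (limma adjusted p = 0.0310), 1 of 11, where 1.23% of all probe sets were called. The brighter Gimap6 probe set was at -0.05 ± 0.15 between the pairs. The centring moved the median of all genes between the pairs from -0.05 to 0.07.

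With the pair as a block the label was called for 0 of the 8 genes, where 11.6% of all genes were called. Gimap3 and Gimap6 then had unadjusted p-values of 0.0375 and 0.0423 in limma, 2 of 8, where 21.9% of all genes had one under 0.05, and adjusted p-values of 0.192 and 0.206.

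The neighbours of the cluster were read next, taking the 10 protein-coding genes on either side in RefSeq order. Of these 20, 16 were on the array under a single symbol and 13 were bright enough to be tested. None was called between the labels by limma, where 2.57% of all genes were called in either direction. With the pair as a block 0 were called, where 11.6% of all genes were. In the main fit 1 had an unadjusted limma p under 0.05, Repin1, where 13% of all genes did. The log2 differences of the 13 ran from -1.05 to 0.45 with a median of -0.01. Repin1, a zinc finger gene on the Gimap8 side, read 216 and 258 on the wild-type arrays, against 154 and 70.5 on the labelled-deficient ones, without overlap (log2 -1.05 ± 0.39, limma adjusted p = 0.289). Tmem176a and Tmem176b, membrane protein genes next to Gimap3, differed by -0.83 ± 0.36 and -0.45 ± 0.32. Tmem176a read 493 and 255 on the wild-type arrays, against 202 and 183 on the labelled-deficient ones, without overlap on its brightest probe set (limma adjusted p = 0.395). On the other two Tmem176a probe sets the labels overlapped, with pair 2 ratios of 1.05 and 1.34, and the log2 difference was -0.46 on the mean of probe sets and -0.38 to -1.29 with 1 array left out (without wild-type replicate 1 and without wild-type replicate 2). Gpnmb was dim, at 48.2 and 77.7 against 9.77 and 62.6 (-0.77 ± 0.56).

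**Figure D3:**
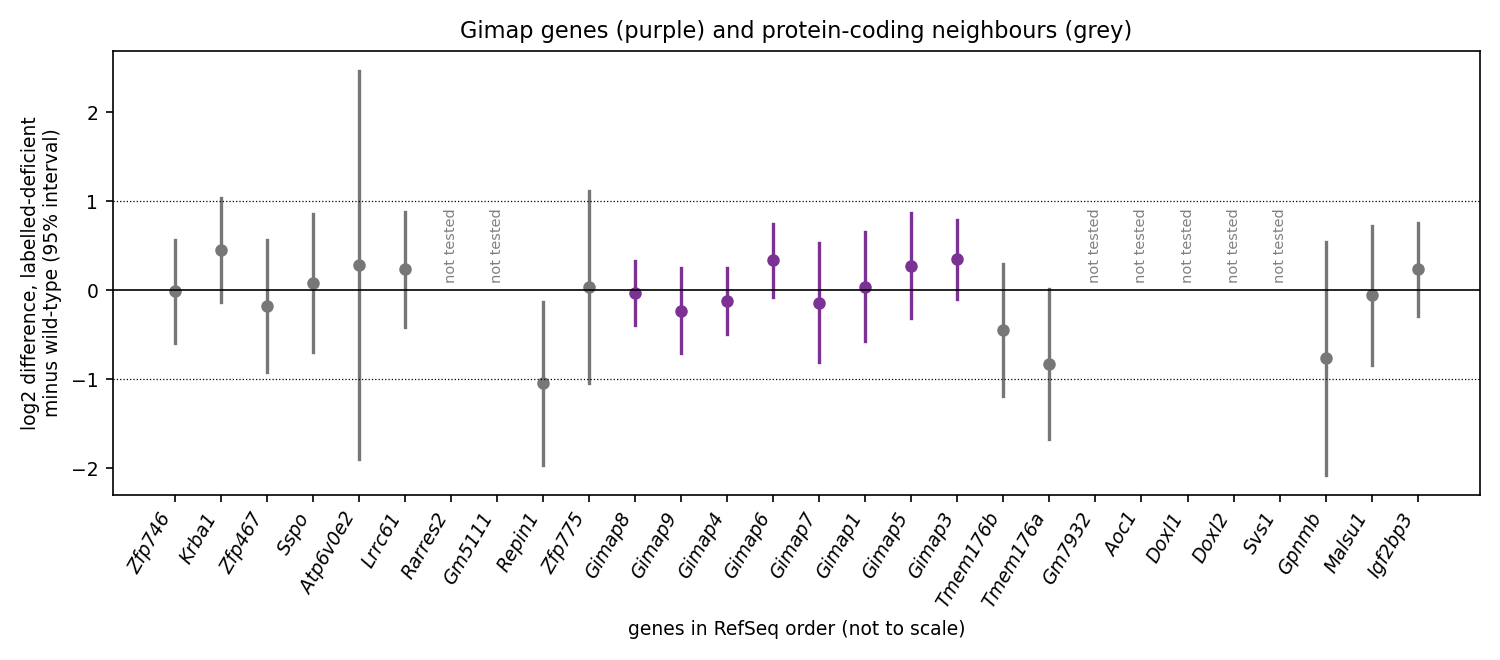
Log2 differences between the labels with 95% intervals (labelled-deficient minus wild-type, log2(signal + 17) scale) for the Gimap genes in purple and their protein-coding neighbours in grey, in RefSeq gene order and not to scale, with dotted lines at a 2-fold change. The 8 Gimap intervals lie between the dotted lines and include 0, and among the neighbours the interval of Repin1 lies below 0.

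Genes that act with GIMAP proteins in lymphocyte survival were read beside them. Of 22 genes listed for this role 21 were tested, and 2 were called higher, Bcl2 and Il7r, and 0 lower (limma, where 1.21% and 1.35% of all genes were). The median log2 difference of the list was 0.04. Bcl2, the survival protein that GIMAP proteins have been reported to bind, read 1342 and 905 on the wild-type arrays, against 3364 and 6735 on the labelled-deficient ones. Both labelled-deficient arrays were well above, a 4.27-fold difference (log2 2.09 ± 0.35, limma adjusted p = 0.0288). All 5 Bcl2 probe sets were higher on both labelled-deficient arrays, and 4 of them were called when every probe set was tested; on the first-listed one Bcl2 missed the threshold (log2 1.42, limma adjusted p = 0.0563). Il7r, the receptor through which interleukin-7 keeps resting T cells alive, read 4362 and 3571 against 8566 and 11045, a 2.46-fold difference (log2 1.30 ± 0.21, limma adjusted p = 0.0261). The call was lost for both genes without labelled-deficient replicate 2 (limma adjusted p = 0.0617 and 0.0948), without the filter on low values (0.0878 and 0.0775) and without the intensity trend (0.0895 and 0.102).

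Bcl2l11, which encodes the death-promoting protein Bim, read 2983 and 3365 on the wild-type arrays, against 5115 and 6511 on the labelled-deficient ones (log2 0.86 ± 0.21). It missed the threshold (limma adjusted p = 0.0840). Blocking on the pair took it past (limma adjusted p = 0.000807), in a fit with 1 residual degree of freedom. Bbc3, which encodes the death-promoting protein Puma, read 55.6 and 175 against 191 and 192 (0.82 ± 0.47, limma adjusted p = 0.584), and the difference was 0.12 without wild-type replicate 1 and 1.52 without wild-type replicate 2. In the fit that blocks on the pair, 4 members of the list were called higher and 1 lower: Stat5b, a transcription factor downstream of interleukin receptors (limma adjusted p = 0.0116), joined Bcl2, Il7r and Bcl2l11, and Pmaip1, which encodes the death-promoting protein Noxa, was the lower one (0.0434). In that fit 5.23% and 6.33% of all genes were called. Stat5b and Pmaip1 are named after their values were seen.

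Gabarapl2 and Gsk3b, each linked to a single GIMAP protein, were not called, nor was Mcl1 (limma, where 2.57% of all genes were in either direction). Gabarapl2, the autophagy protein bound by Gimap6, read 1674 and 2077 on the wild-type arrays, against 2016 and 1825 on the labelled-deficient ones. Its log2 difference was 0.04 ± 0.22, with an interval from -0.47 to 0.55. Gsk3b, a kinase that Gimap5 restrains in T cells, read 2462 and 2299 against 2255 and 2342 (-0.05 ± 0.20, interval -0.51 to 0.41). The signals of Mcl1, a survival protein of the same family as Bcl2, were 18114 and 16671 against 17534 and 18580 (0.05 ± 0.16, interval -0.31 to 0.42).

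**Figure D4:**
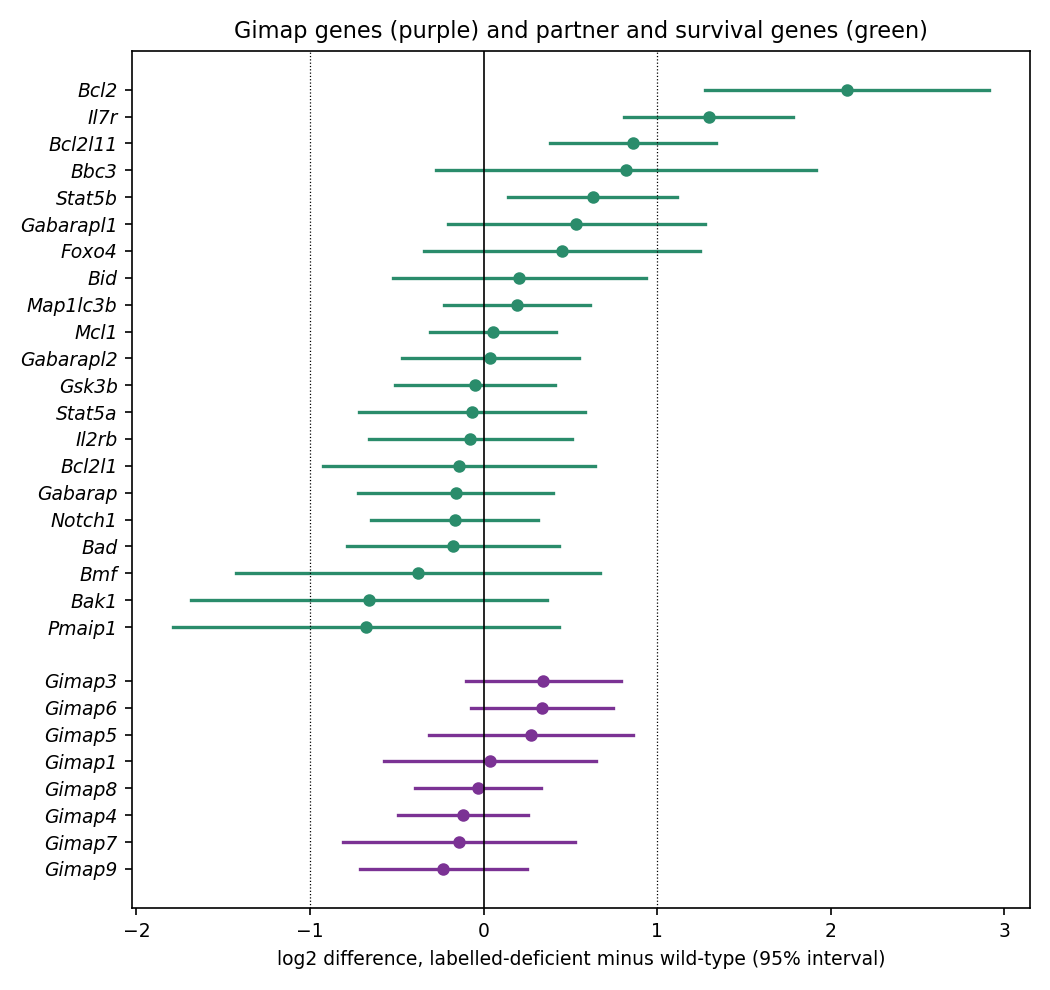
Log2 differences between the labels with 95% intervals (labelled-deficient minus wild-type, log2(signal + 17) scale) for the 8 Gimap genes in purple and 21 partner and survival genes in green. The interval of Bcl2 runs from 1.28 to 2.91, beyond the highest Gimap limit of 0.86, and that of Il7r from 0.81 to 1.78.

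GIMAP genes are known to be expressed by resting T cells, so lists of resting, effector and dividing T cells are given beside them. In the resting list 8 of 10 genes were on the array under a single symbol, and 7 of the 8 were called higher (limma, 1.21% of all genes). The summed signal of that list was 13209 to 14983 on the wild-type arrays and 44421 to 45114 on the labelled-deficient ones. All 10 genes of the effector list were called lower (1.35% of all genes), and their sum went from 81192 and 80895 to 13693 and 16089. In the list of dividing cells 5 of 7 were called lower, with sums of 39840 and 40388 against 15554 and 19197. The members of these lists were chosen with earlier results of the same arrays known, so their direction is not independent evidence. In RNA from a whole population a change in the share of a kind of cell and a change in RNA per cell cannot be told apart, and no part of either in the GIMAP values was tested.

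GIMAP genes are also expressed by B cells and endothelial cells, and markers of both were measured. The 6 B cell markers on the array summed to 1513 to 3300 on the wild-type arrays and 2300 to 3288 on the labelled-deficient ones. Pax5 was the dimmest, between 7.41 and 44.7. Ms4a1 read 1081 and 423 against 1611 and 998, and Cd79b 941 and 299 against 784 and 568. Cd22 read 857 and 672 against 438 and 451, lower without overlap, as were 21.1% of all genes. Of the 5 B cell markers tested 0 were called higher and 0 lower (limma, where 1.21% and 1.35% of all genes were). The 7 endothelial markers summed to 427 to 520 and to 537 to 570, of which Pecam1 had at most 338 and Tie1 at most 2.70. Macrophage and monocyte markers summed to 4836 to 7309 on the wild-type arrays and 7635 to 10197 on the labelled-deficient ones. Csf1r led these sums, at 4749 and 2987 against 6676 and 5165. Csf1r, Adgre1 and Fcgr3 were higher without overlap (20% of all genes were). Cd68, Lyz2 and Cd14 overlapped, and Itgam, with at most 36.1, was lower. Of the 6 tested 0 were called higher and 0 lower (limma, where 1.21% and 1.35% of all genes were). The 2 CD8 T cell genes, Cd8a and Cd8b1, summed to 367 to 518 and to 423 to 663. The 5 natural killer cell markers summed to 6412 to 7763 on the wild-type arrays and 1406 to 1568 on the labelled-deficient ones. Gzma, which the effector list also holds, led the wild-type sums, at 4957 and 7243 against 267 and 176. Tyrobp overlapped and went opposite ways in the pairs, at 1277 and 396 against 1021 and 1295. Klrk1 was lower without overlap, at 133 and 95.5 against 78.6 and 64.8. The defining Ncr1 and Klra8 had at most 37.2 and 14.9. Neutrophil markers, led by Mmp9, summed to 838 to 839 on the wild-type arrays and 263 to 382 on the labelled-deficient ones. No marker was listed at 0, since every deposited signal was above 0, and the part of these cells in the GIMAP values was not tested.

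The genes whose pattern over the 4 arrays was most like the family's were simply steady ones. The mean GIMAP profile, on log2 values centred for each gene, was -0.07 and 0.01 on the wild-type arrays of pair 1 and pair 2, and 0.07 and -0.01 on their labelled-deficient counterparts. The 5 tested genes with the smallest root mean square difference from it were 4930486L24Rik, Magt1, Tmem258, Asah1 and Elac2, at 0.01 each. Magt1, a magnesium transporter gene, read 3286 and 3548 on the wild-type arrays, against 3603 and 3417 on the labelled-deficient ones. The members themselves lay further from their own mean profile, from 0.09 for Gimap8 to 0.32 for Gimap7, and 2848 of the other 12101 genes were closer to it than the median member. With 4 arrays this likeness is a description only.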

How the data were processed

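RNA of 4 splenic Treg samples was hybridised to Affymetrix arrays, per the labels' protocols. The authors deposited linear MAS5 signal intensities, 1 for each probe set, per the submitters' processing notes, without version or settings. MAS5 subtracts background and scales each array, so no scaling was added. Probe sets were named from the platform annotation, which can be old, with symbols updated by gene ID from RefSeq (GRCm38.p6). Promoter sequences are RefSeq's on that build, and all 8 genes matched.

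Tests used log2(signal + 17), with the rounded 25th percentile of all values as pseudocount; fold changes on this scale understate those of dim genes. Probe sets below the 40th percentile of mean values (near a signal of 40.5) and 64 control probe sets were left out. The brightest probe set by mean stood for each of 12109 genes, and all 27004 kept probe sets were fitted separately. The labels were compared two-sided in limma 3.58.1 (R 4.3.3; lmFit and trended eBayes), adjusting by Benjamini-Hochberg over all features, at a threshold of 0.05. The fit had 2 residual degrees of freedom, beside 5.68 (for genes) from the variance shared over features. Fits that hold the pair had 1, beside 16.1 (for genes), so their p-values lean on the shared variance more. An exact test of 2 arrays against 2 cannot go below p = 0.333, so p-values lean on limma's shared variance. The code was tested on simulated data.

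The titles call the number a pair, which is where the pairing comes from; across genes, which are not independent replicates, same-numbered arrays deviated from their group means with a Pearson r of 0.367. Blocking on the pair was tried as an alternative, as were other pseudocounts, filters, scalings and probe-set choices, a fit without the trend, and leaving out each array.

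The text names all 8 members. Among neighbours and partners it names those past the threshold or, with under 4 of these, the 4 with the largest differences, and partners chosen by role: Gabarapl2, Gsk3b and Mcl1. It also names the 5 genes most like the family. Members and lists were chosen with earlier results of these data known. The number of arrays limits the precision.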

Additional observations from a re-analysis of the deposited data

How the results depend on the processing

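Over 14 alternatives the 8 GIMAP genes gave 112 log2 differences between the labels, of which 0 passed the threshold in limma. These ran from -0.56 to 0.57, and 104 kept their direction. Gimap1 turned to -0.015 with median centring and to between -0.29 and -0.13 without wild-type replicate 1 or labelled-deficient replicate 2 (0.37 at the highest without the others). Gimap7 turned to 0.062 on the mean of its probe sets and ranged from -0.56 to 0.28 when 1 array was left out. Gimap8 turned to 0.028 with quantile normalization and ranged from -0.089 to 0.025 with 1 array left out. With 1 array left out Gimap5 ranged from 0.019 to 0.53, Gimap9 from -0.39 to -0.069, Gimap4 from -0.24 to -0.00077, and the dimmer Gimap6 probe set from 0.029 to 1.57. The dimmer probe sets of Gimap4 and Gimap7 ranged from -0.25 to 0.060 and from -0.083 to 0.61, and Gpnmb from -1.55 to 0.018. The causes were not tested. The 95% intervals of all 8 GIMAP genes stayed within a 2-fold change in 10 of the 14 alternatives.

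Between the pairs, the main fit called 0 GIMAP genes higher. Gimap1 was called higher with no pseudocount, with the median as pseudocount and with median centring (limma adjusted p = 0.0467, 0.04999 and 0.0156). On the mean of probe sets Gimap6 was called higher (limma adjusted p = 0.0436) and Gimap1 was not (0.0728). The number called lower was 0 in place of 1 without the filter, with median centring, without the intensity trend, on the first-listed probe set and on the mean of probe sets. Gimap4 turned to 0.041 with median centring and 0.011 with quantile normalization, and Gimap6 to 0.071 and, on the mean of its probe sets, to 0.58.

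Of the partner and survival genes 0 were called higher without the filter or the intensity trend, 1 on first-listed probe sets, and 0 to 2 with 1 array left out. With the replicate block 4 were higher and 1 lower. Over all genes the counts higher and lower were 45 and 44 without the filter, 57 and 54 without the intensity trend, 633 and 767 with the replicate block, and 67 to 278 and 82 to 265 with 1 array left out; 84 were higher on first-listed probe sets. The block changed no call of a GIMAP gene or neighbour.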
